A study of Rattus norvegicus with 20 samples.

Results

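The interferon response and antigen presentation module was examined in accumbens shell tissue, a part of the ventral striatum that takes part in reward. The module is a list of 36 genes that sense, transmit or carry out the interferon response or that cut and load peptides for class I molecules. A member was taken as every probe set whose platform gene symbol is on the list, and where a gene had several, the one of highest mean over the 20 arrays was used. By this rule 35 of the 36 members were found among 14217 genes with a probe set, and 25 of them were among the 10746 genes tested. The other 10 lay in the dimmest 33.3% of probe sets, below a mean log2 value of 6.65, and were left out of the main test. They are given by their values and, where named, by a fit without this filter. Ddx58, which encodes the RNA sensor RIG-I, was not found by its symbol. The platform lists a probe set of that gene under the older name Rig1, and it was dim (mean 6.20).

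All animals were alcohol-preferring (P) rats, which were selectively bred to drink ethanol by choice. The ethanol group (n = 10 animals) could drink ethanol solutions of 15 and 30% in adolescence, and the water group (n = 10 animals) was given only water. Each animal gave 1 array of total RNA from the accumbens shell, hybridised after labelling from the 3′ end. The labels do not give sex, age at tissue collection, or the time between the last drink and collection, so none of these could be set beside the values.

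Interferons are secreted proteins that bind the receptors IFNAR and IFNGR and activate STAT factors. STAT2 and IRF9 act in a complex that binds the interferon-stimulated response element (ISRE), and the gamma-activated site is the element of the interferon gamma response. The genes induced in this way include antiviral effectors, the ubiquitin-like protein ISG15 and the parts of the immunoproteasome and peptide transporter that supply class I molecules. In brain, microglia, endothelial cells and astrocytes are known to respond strongly to interferon, and unstimulated tissue is known for low expression of many of these genes.

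The ISRE is the element through which many interferon-induced genes are known to respond, so the upstream stretches of members with an ISRE core close to the start are shown before the values. RefSeq promoters of the rat build GRCr8 were matched by symbol for 29 of the 35 members, and 250 bases before the annotated start were searched on both strands. The ISRE core, GAAA, any 2 bases and GAAA again, was found upstream of 15 of the 29 members (51.7%), against 1140 of 33469 promoters of the same length in the table (3.41%). The gamma-activated site, TTC, any 3 bases and GAA, was found upstream of 7 of the 29 (24.1%), against 7.67% of all promoters. Bst2, Ifitm3 and Oas1a had both, and in Bst2 the matches of the 2 motifs overlapped. These are letter matches, which do not show that a factor binds there.

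In the sequences that follow, the last 100 bases before the start are given from 5′ to 3′ along the gene's strand, with each ISRE core in capitals. A core that starts with TTTC lies on the other strand. Irf7, Ifit3, Oas1a and Ifitm3 stand for the interferon-induced factors and effectors, and Psmb10, Psme2, Tap2 and Tapbp for antigen processing. In Oas1a and Tapbp a pair of cores overlapped, and in Psmb10 there were 2 separate cores.
Irf7, chr1:205800024-205800123, minus strand: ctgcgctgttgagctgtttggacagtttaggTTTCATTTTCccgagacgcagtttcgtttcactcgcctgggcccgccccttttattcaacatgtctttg
Ifit3, chr1:241527226-241527325, plus strand: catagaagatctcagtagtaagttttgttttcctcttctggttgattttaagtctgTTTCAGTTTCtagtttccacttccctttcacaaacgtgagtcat
Oas1a, chr12:41330366-41330465, plus strand: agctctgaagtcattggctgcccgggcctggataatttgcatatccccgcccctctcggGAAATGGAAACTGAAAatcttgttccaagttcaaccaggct
Ifitm3, chr1:205541759-205541858, minus strand: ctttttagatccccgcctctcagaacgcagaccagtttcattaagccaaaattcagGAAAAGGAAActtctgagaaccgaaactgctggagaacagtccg
Psmb10, chr19:50743293-50743392, minus strand: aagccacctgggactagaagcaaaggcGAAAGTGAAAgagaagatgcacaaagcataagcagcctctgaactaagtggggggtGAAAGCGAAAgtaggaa
Psme2, chr15:33052752-33052851, minus strand: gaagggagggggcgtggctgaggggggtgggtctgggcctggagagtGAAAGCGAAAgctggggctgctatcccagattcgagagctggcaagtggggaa
Tap2, chr20:4652297-4652396, minus strand: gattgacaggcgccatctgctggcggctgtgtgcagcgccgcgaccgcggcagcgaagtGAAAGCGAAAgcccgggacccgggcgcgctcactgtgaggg
Tapbp, chr20:4967878-4967977, minus strand: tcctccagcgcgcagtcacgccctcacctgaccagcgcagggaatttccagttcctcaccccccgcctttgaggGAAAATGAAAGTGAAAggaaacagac

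**Figure D1:**
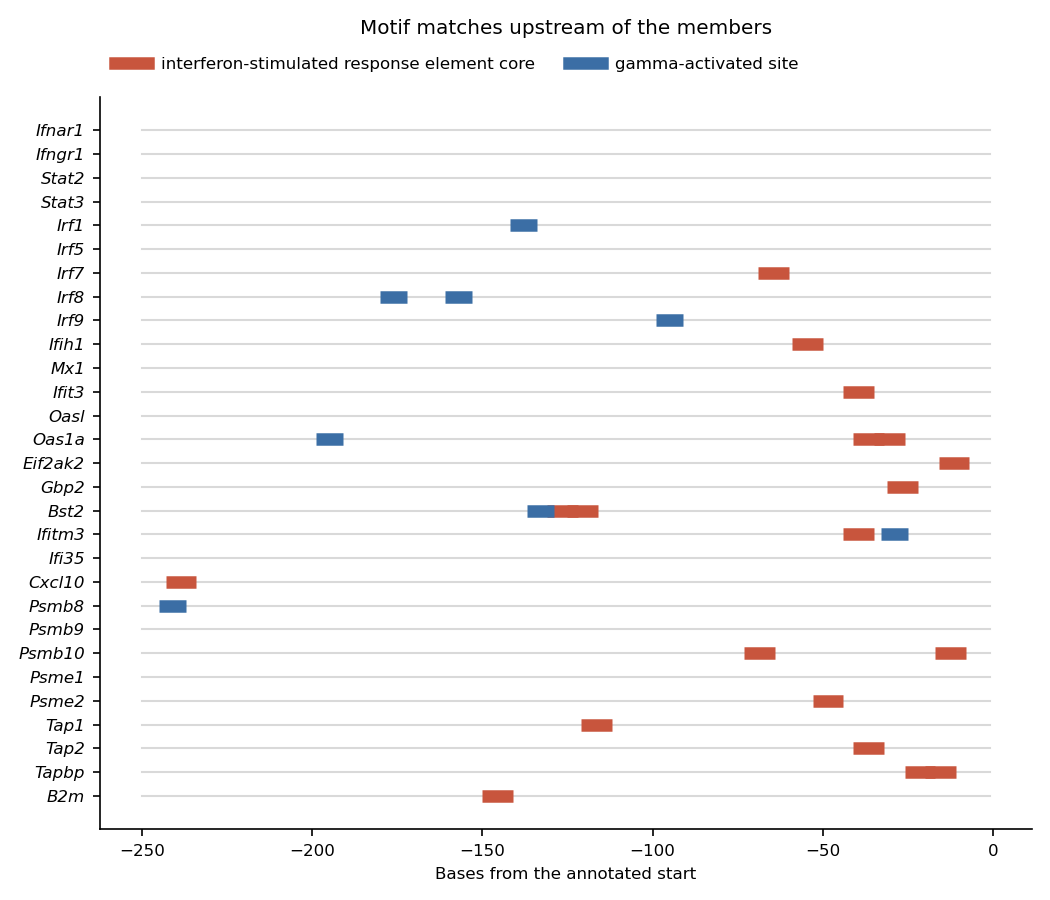
Positions of motif matches in the 250 bases before the annotated start of 29 members, in bases from the start (horizontal axis), with ISRE cores in red and gamma-activated sites in blue. The ISRE cores of Eif2ak2, Tapbp, Gbp2, Oas1a, Tap2, Ifit3, Ifitm3 and Psme2 all begin within 53 bases of the start, while those of Tap1, Bst2, B2m and Cxcl10 lie between 112 and 243 bases upstream.

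The median difference on the log2 scale, in the fit without the filter on dim probe sets, was 0.04 for the 15 members with the core, 10 of them positive, and 0.0025 for the 14 without it, 7 of them positive. The 6 members without a promoter in the table, Irf2, Isg15, Usp18, Mx2, Ifit1 and Ifit2, are not in it, and Usp18 among them had the largest difference of all members. Over all genes in the fit without the filter 52.6% were positive, with a median of 0.0046. Of the members with the core, Cxcl10, Gbp2, Ifih1, Ifit3, Oas1a and Tap1 were dim, and each of these was positive. Among the brighter ones Bst2, Ifitm3, Irf7 and Psmb10 were positive, and B2m, Eif2ak2, Psme2, Tap2 and Tapbp negative. The comparison is a description and was not tested.

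The array medians were 7.93 to 7.98 on the log2 scale, in values that had already been normalized between arrays. The median correlation of each array with the other arrays ran from 0.973 to 0.994. The water arrays varied more: water animals 12, 17 and 20 stood apart by correlation. The 3′ minus 5′ value of the Gapdh and beta-actin controls, which rises as RNA is degraded, was 1.21 ± 0.12 (SD, n = 10) in ethanol and 1.40 ± 0.22 (SD, n = 10) in water. Water animals 17, 19 and 20 had the 3 lowest means of the medium spiny neuron markers (11.90 to 12.42, against 12.64 or more in the other 17 animals). Within the ethanol group, animal 8 had the lowest of these means (12.64), the highest oligodendrocyte marker mean (12.24) and the lowest median correlation (0.990). The part of these measures in the results was not tested beyond the fits named beside them. In bulk tissue, fewer cells of a type and less RNA per cell cannot be told apart.

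No member of the module passed the test between ethanol and water. Of the 25 members tested, 12 had a positive and 13 a negative difference, and the median difference was -0.0025 on the log2 scale, beside 0.00016 over all genes tested (limma, adjusted over 20695 probe sets). In the whole comparison 10 of 10746 genes passed, or 0.0931%, with 0.0838% higher and 0.00931% lower in ethanol. At an unadjusted p under 0.05 there were 3 members (12%), where 10% of all genes tested lay under the same limit. All 3 were higher in ethanol, beside 5.24% of all genes that were higher and 4.77% that were lower. The share of members is near that of all genes. A p that misses the threshold does not show that the groups were equal.

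Leaving out dim genes gave the same count of 0. Among the 22 members with a mean of at least 7, 0 passed, beside 9 of 10270 genes (0.0876%), and 11 had a positive difference. The same 3 members, Usp18, Irf8 and Ifitm3, had an unadjusted p under 0.05 there, which is 13.6% beside 10.2% of genes. With no filter, 0 of the 35 members passed beside 0.0844% of 14217 genes, and 8.57% were under an unadjusted p of 0.05 beside 9.28%. There 21 members (60%) had a positive difference, beside 52.6% of all genes. The 10 dim members had differences between 0.11 and -5.5e-05, 9 of them positive.

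**Figure D2:**
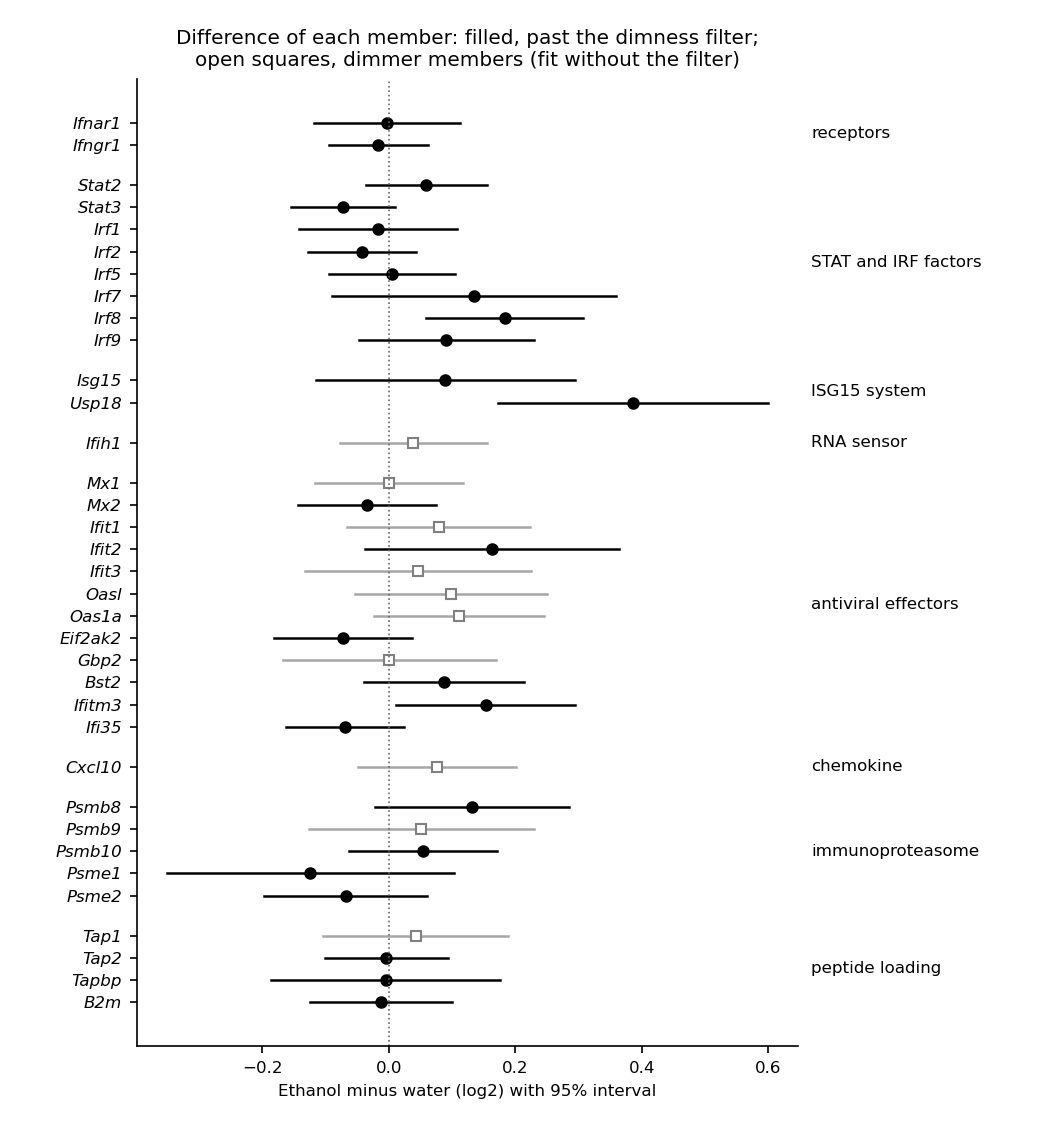
Ethanol minus water on the log2 scale (horizontal axis) for 35 members grouped by role, with 95% intervals from the moderated variance. Filled points are the 25 members tested, open squares the 10 dim members in the fit without the filter, and the intervals of Usp18, Irf8 and Ifitm3 alone lie above 0.

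The receptors differed little between the groups. Ifnar1, a chain of the type I interferon receptor, was at 8.63 ± 0.08 in ethanol and 8.64 ± 0.16 in water (SD, n = 10 each), with a 95% interval of the difference from -0.12 to 0.11. Ifngr1, the ligand-binding chain of the interferon gamma receptor, was at 10.32 ± 0.05 and 10.34 ± 0.09, with an interval from -0.10 to 0.06. The other 5 probe sets of Ifnar1 did not run one way: their differences were 0.16, 0.0081, -0.0070, -0.10 and -0.15. The probe set at -0.0070 was dim, and none of the other 4 passed (lowest adjusted p = 0.364).

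Among the transcription factors Irf8 had the largest difference. IRF8 is a factor of myeloid cells and in brain is best known from microglia. Irf8 ran from 7.10 over a median of 7.26 to 7.52 in ethanol, and from 6.85 over 7.12 to 7.33 in water. All 10 ethanol animals lay above the water mean and 3 above the highest water animal, so the groups overlapped. The difference was 0.18 ± 0.06 (SE) and did not pass (unadjusted p = 0.00574, adjusted p = 0.298). With the mean of the microglial markers as a covariate the difference was 0.18, and without water animals 12, 13, 17, 19 and 20 it was 0.10. Over the alternatives that keep the threshold on the adjusted p, that p lay between 0.297 and 0.681.

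The remaining factors differed by less. Irf7, which amplifies the type I response, was at 7.66 ± 0.30 in ethanol and 7.52 ± 0.21 in water, a difference of 0.14 with an interval from -0.09 to 0.36. Irf9 and Stat2, partners in the complex that binds the ISRE, had differences of 0.09 and 0.06 (adjusted p = 0.573 and 0.598). Irf9 was at 8.09 ± 0.10 in ethanol and 7.997 ± 0.193 in water, and Stat2 at 8.73 ± 0.09 and 8.67 ± 0.10 (SD, n = 10 each). The further Irf9 probe set had the opposite sign (-0.05), while that of Stat2 was at 0.07.

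Stat3, a factor shared with cytokines of the IL-6 family, had the smallest p of the members that were lower in ethanol. It ran from 9.62 over a median of 9.75 to 9.87 in ethanol, and from 9.66 over 9.83 to 9.94 in water. Of the ethanol animals 8 lay below the water mean, and the ranges overlapped. The difference was -0.07 ± 0.04 (SE, adjusted p = 0.46), and -0.10 on its other probe set. Irf1, a factor of the interferon gamma response, Irf2, its antagonist, and Irf5, a factor downstream of Toll-like receptors, differed by -0.02 (interval -0.14 to 0.11), -0.04 (interval -0.13 to 0.04) and 0.0051 (interval -0.09 to 0.10). Irf1 was at 6.84 ± 0.13 in ethanol and 6.86 ± 0.15 in water, Irf2 at 9.59 ± 0.07 and 9.63 ± 0.09, and Irf5 at 7.16 ± 0.11 and 7.16 ± 0.09. Both other Irf2 probe sets were dim and had positive differences (0.06 and 0.10).

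Usp18 had the smallest p of all members. USP18 is the protease that removes ISG15 from proteins and also damps signalling at the type I receptor. Usp18 ran from 6.68 over a median of 7.35 to 7.62 in ethanol, and from 6.67 over 6.87 to 7.41 in water. Of the ethanol animals 9 lay above the water mean and 4 above the highest water animal. Ethanol animal 8 was as low as the lowest water animals, and water animal 12 was as high as the middle of the ethanol group.

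The difference in Usp18 was 0.39 ± 0.10 (SE), or 1.31-fold, with an interval from 0.17 to 0.60, and it did not pass (unadjusted p = 0.00112, adjusted p = 0.224). Without ethanol animal 8 it was 0.46 and passed (adjusted p = 0.0301), and with array weights it was 0.45 and passed (adjusted p = 0.0386). Ethanol animal 8 held the lowest value of its group, so leaving it out must raise the difference. The lowest array weights were those of water animals 20, 12 and 17 (0.24, 0.29 and 0.36). Their Usp18 values were 6.68, 7.41 and 7.04, and that of animal 12 was the highest in water. The 3 runs in the order of deposit, which no label calls batches, hold 4, 4 and 2 animals of each group. Within them the difference was 0.56, 0.19 and 0.45. It was 0.45 when the fit held the 3′ minus 5′ value and 0.36 when it held the microglial marker mean (adjusted p = 0.50 and 0.304). Isg15, the ubiquitin-like protein that USP18 removes, was at 7.55 ± 0.22 in ethanol and 7.46 ± 0.25 in water, a difference of 0.09 (adjusted p = 0.712).

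**Figure D3:**
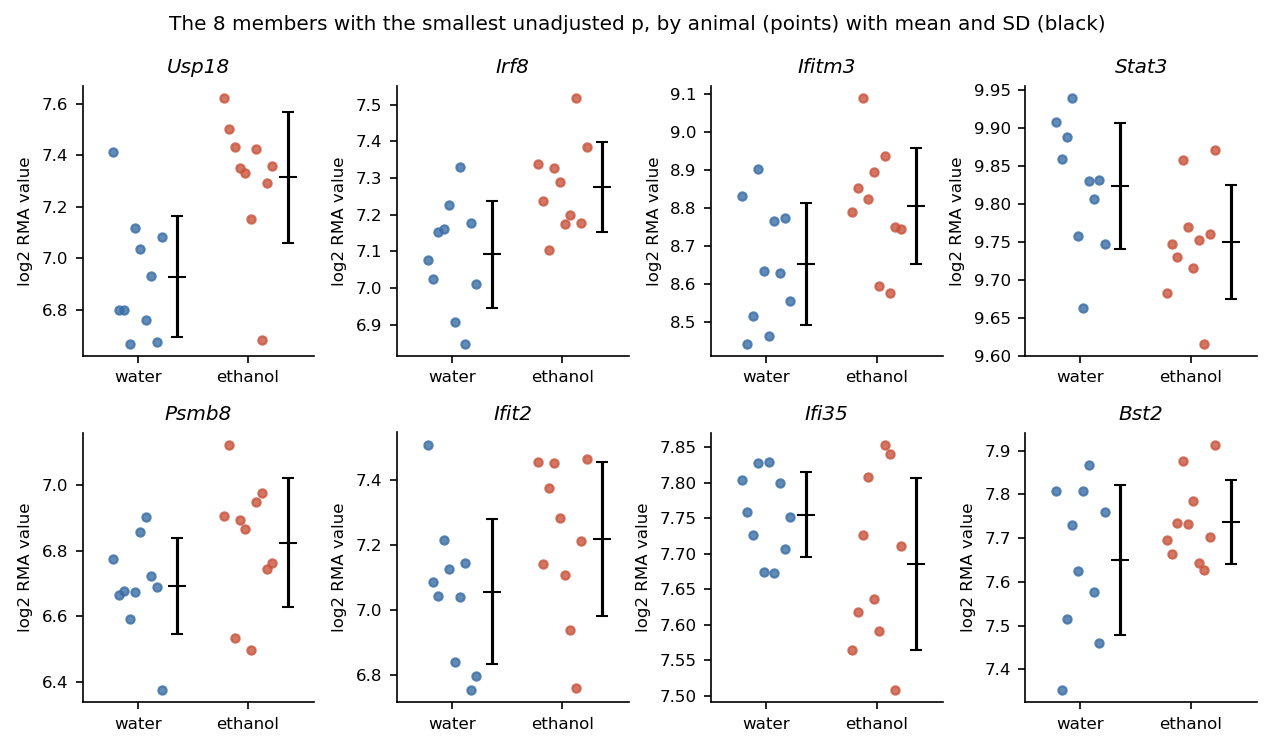
Log2 values (vertical axis, scaled for each gene) of the 8 members with the smallest unadjusted p, with 1 point for each animal, water in blue and ethanol in red, and the group mean ± SD (n = 10) in black. The groups overlap for each of the 8, and for Usp18 1 ethanol animal (6.68) and 1 water animal (7.41) lie away from the rest of their groups.

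The RNA sensors were dim. Ifih1, which encodes the sensor MDA5 of long double-stranded RNA, was at 5.57 ± 0.08 in ethanol and 5.53 ± 0.16 in water. The probe set listed as Rig1 was at 6.20 in both groups (SD 0.16 in ethanol and 0.15 in water), with a difference of 0.0077.

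Of the antiviral effectors, 6 of 12 were tested and 0 passed. Ifitm3, a membrane protein that blocks virus entry, ran from 8.58 over a median of 8.81 to 9.09 in ethanol, and from 8.44 over 8.63 to 8.90 in water. Of the ethanol animals 8 lay above the water mean and 2 above the highest water animal. The difference was 0.15 ± 0.07 (SE, unadjusted p = 0.0349, adjusted p = 0.392).

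Ifit2 encodes a tetratricopeptide protein induced by interferon. It ran from 6.76 over a median of 7.25 to 7.46 in ethanol, and from 6.75 over 7.06 to 7.51 in water, so water animal 12 was above each ethanol animal. The difference was 0.16 ± 0.10 (SE, adjusted p = 0.489), and 0.10 on the dimmer probe set.

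Bst2, the tetherin that holds virus particles at the cell surface, ran from 7.63 over 7.72 to 7.91 in ethanol and from 7.35 over 7.68 to 7.87 in water. The difference was 0.09 ± 0.06 (SE, adjusted p = 0.555), and 5 water animals lay below the lowest ethanol animal. Ifi35 ran from 7.51 over 7.67 to 7.85 in ethanol and from 7.67 over 7.76 to 7.83 in water, so the water range lay inside the ethanol range. Its difference was -0.07 ± 0.05 (SE, adjusted p = 0.526). Eif2ak2, the kinase PKR that halts translation on double-stranded RNA, and Mx2, a dynamin-like GTPase, differed by -0.07 and -0.03 (adjusted p = 0.566 and 0.80), with intervals from -0.18 to 0.04 and from -0.14 to 0.07. Eif2ak2 was at 7.41 ± 0.09 in ethanol and 7.49 ± 0.14 in water, and Mx2 at 7.22 ± 0.14 and 7.25 ± 0.08 (SD, n = 10 each). The other Mx2 probe set was dim (mean 4.87) and had the opposite sign (0.013).

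The remaining effectors were dim, with group means from 5.21 for Mx1 to 6.26 for Oasl. Ifit1, Ifit3, Oasl and Oas1a, the last of these a synthase of the 2′-5′ oligoadenylates that activate RNase L, differed by 0.08, 0.05, 0.10 and 0.11 in the fit without the filter (adjusted p = 0.698, 0.872, 0.637 and 0.549). Mx1 and Gbp2, large GTPases of the interferon response, were at 5.21 and 5.31 in both groups. The chemokine Cxcl10, which draws activated T cells, was at 5.23 ± 0.16 in ethanol and 5.15 ± 0.12 in water (SD, n = 10 each).

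**Figure D4:**
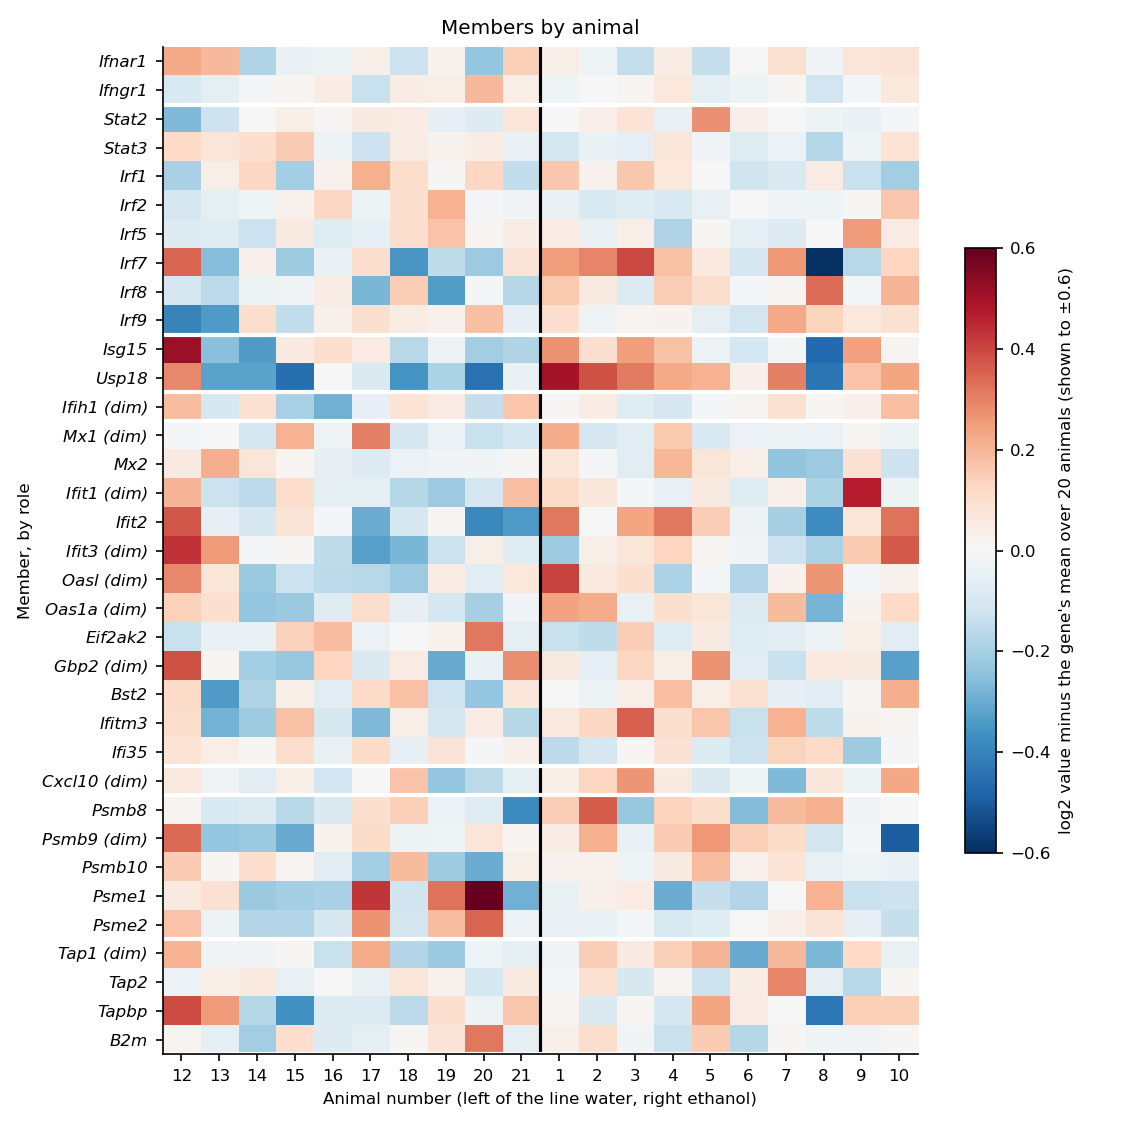
Log2 value of each of the 35 members (rows, by role) in each of the 20 animals (columns, animal numbers) minus that gene's mean, with red above and blue below it. Ethanol animal 8 is below the mean for Irf7, Isg15, Usp18, Ifit2 and Tapbp and above it for Irf8, and water animals 17, 19 and 20 are above it for Psme1 and Psme2.

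In the immunoproteasome 0 of the 4 members tested passed. Psmb8 encodes a catalytic subunit that replaces a constitutive one when interferon gamma acts. It ran from 6.50 over a median of 6.88 to 7.12 in ethanol, and from 6.37 over 6.68 to 6.90 in water. Of the ethanol animals 8 lay above the water mean and 4 above the highest water animal. The difference was 0.13 ± 0.07 (SE, adjusted p = 0.469), on a probe set below a mean of 7. Psmb10, a further catalytic subunit, was at 9.99 ± 0.07 in ethanol and 9.93 ± 0.16 in water, a difference of 0.05 (interval -0.06 to 0.17). Psmb9, the remaining one, was dim, at 6.44 ± 0.22 and 6.38 ± 0.19.

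Psme1 and Psme2, the alpha and beta subunits of the proteasome activator PA28, were lower in ethanol without passing. Psme1 was at 10.08 ± 0.14 in ethanol and 10.20 ± 0.34 in water, and Psme2 at 10.38 ± 0.06 and 10.44 ± 0.19 (SD, n = 10 each). Water animals 17, 19 and 20 held the 3 highest Psme1 values (10.46 to 10.90, against at most 10.35 in the other 17 animals) and the 3 highest Psme2 values (10.59 to 10.76, against at most 10.58). Without these 3 animals the differences changed sign, from -0.12 to 0.06 for Psme1 and from -0.07 to 0.03 for Psme2. Leaving out the highest values of a group must lower its mean, so the direction of this change was fixed in advance. Water animals 17, 19 and 20 are also the animals with the lowest medium spiny neuron markers. The part of tissue composition in the values was not tested.

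In peptide loading 0 of the 3 members tested passed. Tap2, a subunit of the peptide transporter, was at 7.39 ± 0.13 in ethanol and 7.40 ± 0.06 in water, with an interval of the difference from -0.10 to 0.09. Tapbp, the chaperone tapasin, was at 6.99 ± 0.18 and 6.99 ± 0.22, with an interval from -0.19 to 0.18. B2m, the light chain of class I molecules, was at 13.20 ± 0.10 and 13.22 ± 0.14, with an interval from -0.12 to 0.10, and its other probe set differed by 0.0028. Tap1 was dim, at 6.42 ± 0.18 and 6.38 ± 0.15. In the rat genome Tap2, Psmb8, Tap1 and Psmb9 lie next to each other on chromosome 20, with no other coding gene between them in the RefSeq table.

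No gene of the rest of the pathway passed either. Of 101 further genes of interferon production, signalling and antigen presentation, 74 were found on the array, 43 were tested and 0 passed, with 17 positive and 26 negative differences and a median of -0.01. At an unadjusted p under 0.05 there were 6 of the 43, 4 higher and 2 lower, beside 10% of all genes. The dim ones included interferon beta and interferon gamma themselves (Ifnb1 at a mean of 5.22 and Ifng at 4.52). The chemokines Cxcl9 and Cxcl11, the class II genes RT1-Da, RT1-Db1 and RT1-Bb, and Cd74 were dim too. Other class II genes, RT1-Ba, RT1-DMa and RT1-DMb, were tested and did not pass (means of 8.52, 8.93 and 9.14).

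The 4 genes of smallest p were Trim25, Parp9, RT1-T24-4 and Rsad2. Trim25, the ubiquitin ligase that acts on RIG-I, was at 7.78 ± 0.12 in ethanol and 7.94 ± 0.05 in water (SD, n = 10 each), a difference of -0.16 ± 0.04 (SE, adjusted p = 0.224). All 10 ethanol animals lay below the water mean, though the ranges overlapped. Rsad2, the antiviral enzyme viperin, was higher by 0.31 ± 0.12 (SE), at 7.12 to 8.14 in ethanol and 7.10 to 8.06 in water (adjusted p = 0.339). Parp9 and the class I gene RT1-T24-4 were each higher by 0.21 (adjusted p = 0.311 and 0.314). Rat class I genes of the RT1 complex include close copies, so a probe set of RT1-T24-4 may also read others.

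Markers of the cells that could carry the response did not pass the test. Of 20 microglial markers 16 were tested and 0 passed, 14 were lower in ethanol and 2 higher, and the mean over the list lay between 8.85 and 9.05 in ethanol and between 8.85 and 9.28 in water. The median difference of the list was -0.08. At an unadjusted p under 0.05 there were 2 of the 16, both lower, beside 10% of all genes. Beyond the fit that held the microglial marker mean, the part of microglia in the values of Irf8, which did not pass either, was not tested. Of 14 endothelial markers 11 were tested and 0 passed, with list means of 8.68 to 8.92 in ethanol and 8.69 to 8.86 in water. Of the 11, 7 were higher and 4 lower in ethanol, and 3 had an unadjusted p under 0.05, beside 10% of all genes. Egfl7 and Tie1, an endothelial secreted factor and an endothelial receptor, had differences of 0.18 and 0.20 (adjusted p = 0.225 and 0.283), and Ocln, a tight junction protein, of -0.10 (adjusted p = 0.37); these 3 were named after their values were seen. The part of endothelial cells in the members' values was not tested. Of 8 astrocyte markers tested 0 passed, 3 higher and 5 lower. All 16 medium spiny neuron markers tested were higher in ethanol and all 10 oligodendrocyte markers lower, with 0 past the threshold, and their part in the members' values was not tested. Of 10 lymphocyte markers 1 was tested: Lck, a kinase known also from brain tissue, at a difference of -0.01. The T cell genes Cd3e, Cd3d, Cd3g and Cd8a and the B cell gene Ms4a1 were all dim (means of 4.69 to 5.82). Of 5 perivascular macrophage markers 2 were tested, Lyve1 at a difference of 0.32 and Mrc1 at -0.03 (adjusted p = 0.464 and 0.952). Of 8 blood and choroid plexus markers 2 were tested, Hbb at 0.20 and Kcnj13 at -0.00049 (adjusted p = 0.488 and 0.999).

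Members differed between animals of the same group, and some did so together. In 10 pairs of members the values of 20 animals were correlated after the group means were removed, and p-values came from permutation tests with 100000 resamples, adjusted over the 10 pairs. Irf7 and Usp18 were correlated at Pearson r = 0.89 (permutation p = 1e-05, the smallest these resamples can give, adjusted p = 5e-05) and Spearman rho = 0.83 (permutation p = 2e-05, adjusted p = 2e-04). Without ethanol animal 8 and water animal 12, the animals farthest from the median of Irf7, r was 0.76. Within the runs in the order of deposit, of 4, 4 and 2 animals of each group, r was 0.85, 0.96 and 0.71.

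Isg15 and Usp18 were correlated at r = 0.80 (permutation p = 7e-05, adjusted p = 0.000233) and rho = 0.66 (permutation p = 0.00222, adjusted p = 0.0074). Without the same 2 animals r was 0.55, so it was weaker without them. Within the runs r was 0.78, 0.96 and 0.16, and the last run holds too few animals (2 of each group) to judge it. Among 10745 other genes Irf7 had the highest correlation with Usp18 and Isg15 the fourth highest, a ranking made after the values were seen. Rsad2 (r = 0.71) and Rtp4 (r = 0.70), both interferon-induced, came in places 9 and 11. Places 2 and 3 went to genes outside the pathway, Tmsb10-ps5 and Ins1 (r = 0.81 each). So did places 5 to 8 and 10, held by Sv2b, Gh1, Nherf1, Pcdh20 and Dtnbp1 (r from 0.75 to 0.70). Stat2 and Irf9 were at -0.13 and -0.27 with Usp18.

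Psme1 and Psme2 were correlated at r = 0.89 (permutation p = 1e-05, adjusted p = 5e-05) and rho = 0.83 (permutation p = 4e-05, adjusted p = 2e-04). Without water animals 17 and 20, the farthest from the median of Psme1, r was 0.79, and within the runs it was 0.75, 0.94 and 0.94. Without water animals 12, 13, 17, 19 and 20 it was 0.53. The 7 other pairs did not pass (adjusted p between 0.255 and 0.489 for r, and between 0.095 and 0.758 for rho). Irf9 and Stat2 were at r = 0.28, which turned to -0.32 without water animals 12 and 13, so this value rested on those animals. Tap1 and Psmb9, neighbours in the genome and both dim, were at r = 0.38 and rho = 0.47.

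**Figure D5:**
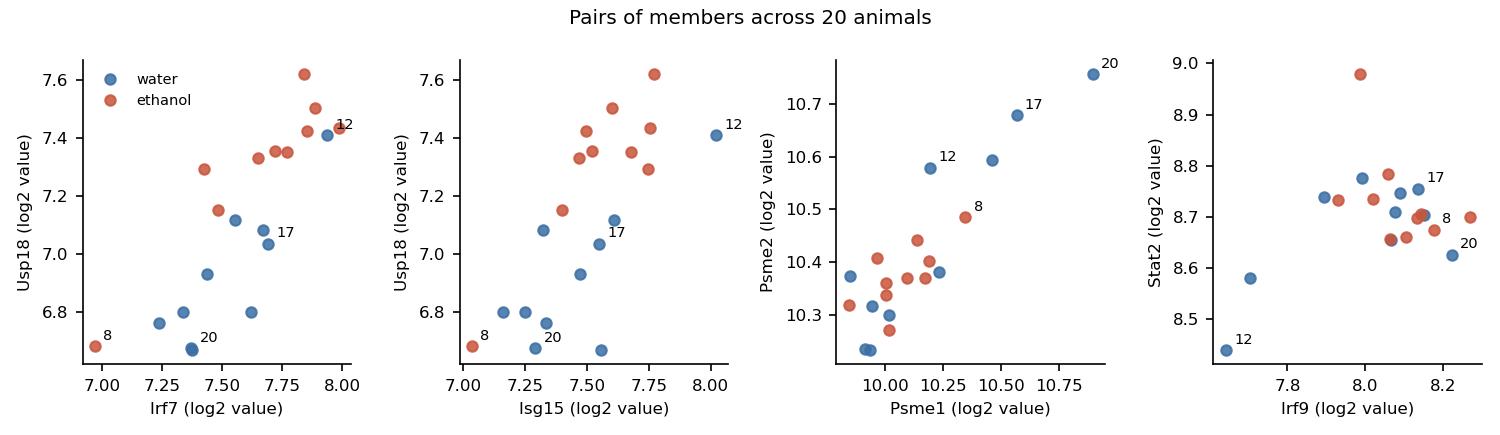
Log2 values of 4 pairs of members in 20 animals, water in blue and ethanol in red, with ethanol animal 8 and water animals 12, 17 and 20 numbered. Points of Irf7 against Usp18 and of Psme1 against Psme2 lie along a line (r = 0.89 each, group means removed). Those of Irf9 against Stat2 do not (r = 0.28), and r was -0.32 without water animals 12 and 13 at the lower left.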

How the data were processed

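RNA of 20 accumbens shell samples was measured on 1-colour arrays, 1 per animal; per the labels' protocols, 50 ng of total RNA was labelled with biotin. RMA was used, per the submitters' processing notes. The deposited values are on the log2 scale and had been normalized between arrays by the authors, which hides a shift shared by most genes and shrinks differences of dim probe sets. The RMA software's version is not given in the sources used here. Replicates are separate animals by their titles, and the number of arrays limits the precision.

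Of 31099 probe sets, 57 are controls. The platform's table names 1 gene for 20826 of the others, several for 436 and none for 9780. Controls and the dimmest 33.3% (mean below 6.65) were left out, and 20695 probe sets were tested with limma 3.58.1 in R 4.3.3 (moderated two-sided test by eBayes, no covariates, Benjamini-Hochberg, threshold 0.05). Intervals are 95%. Levels of different genes were not set against each other, since probes differ in brightness. Animals 1 to 10 drank ethanol and 12 to 21 water, so no numbers pair the groups. The fit and the correlation test were tested on simulated data. Promoters come from RefSeq (GRCr8), and the array files name no build.

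The members, lists and tests were chosen with earlier results of these data known. All members found are named, and full ranges are given for the 8 of smallest p. Alternatives changed the filter, normalization, variance model, threshold, arrays, covariates and the use of 1 probe set a gene or the mean over them. Correlations used scipy 1.17.1 and numpy 2.4.6 in Python 3.11.15.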

Additional observations from a re-analysis of the deposited data

Results flagged for a closer look

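Each member was checked in each group for an animal whose gap to its nearest neighbour was large for the range of the group. Of 70 such groups 10 held one, 8 in ethanol and 2 in water. The limit used flags about 1 in 20 groups of independent, normally distributed values. The share flagged over all genes was not computed, and members that vary together can be flagged through the same animal. The count is therefore not a result about the members. Ethanol animal 8 was the lowest of its group for Usp18 (6.68, next 7.15), Isg15 (7.04, next 7.40) and Tapbp (6.56, next 6.88). Water animal 12 was the highest of its group for Isg15 (8.02, next 7.61), and water animal 13 for Mx2 (7.45, next 7.31). In ethanol the highest value stood apart for Stat2 in animal 5 (8.98, next 8.78), for Irf2 in animal 10 (9.77, next 9.62), for Irf5 in animal 9 (7.41, next 7.21) and for the dim Ifit1 in animal 9 (6.66, next 6.30). The dim Psmb9 was lowest in ethanol animal 10 (5.91, next 6.30).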

How the results depend on the processing

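The count of 0 members past the threshold held in 15 of 17 alternatives; it was 1 with array weights (Usp18) and 3 at an unadjusted p under 0.05. Leaving out each animal in turn gave 0 to 1 members, with 1 (Usp18) only without ethanol animal 8. Of the members tested 12 had a positive difference, against 21 with no filter (35 members) and 4 with a filter at a mean of 7.96, which leaves 11 members. The count of 0 further pathway genes became 6 at an unadjusted p under 0.05, and was 0 to 0 over the animals left out. The members' median difference stayed between -0.01 and 0.04. Over all genes 10 passed, and 2 when the fit held the 3′ minus 5′ value, 6 with that stricter filter, 5 without water animals 12, 17 and 20, 18 without all 5 water animals (12, 13, 17, 19 and 20), 16 with array weights and 1076 at an unadjusted p under 0.05. Of the 25 members tested, 14 kept their sign in each of the 13 to 15 alternatives that give that gene a difference and with each animal left out. One of these alternatives took the mean over a gene's tested probe sets. Single other probe sets are not in this count, and those of Irf9, Irf2 and Mx2, all among the 14, had the opposite sign. The other 11, none past the threshold, changed it, and the cause was not tested. With the arrays normalized again by quantiles Ifnar1 and Irf5 were at 0.0015 and -0.0051. With array weights Ifnar1, Irf1, Irf5, Psme2 and Tapbp were at 0.0064, 0.016, -0.0018, 0.014 and 0.076. With the 3′ minus 5′ value Ifnar1, Irf1, Irf5 and Tapbp were at 0.0058, 0.039, -0.011 and 0.029. With the microglial mean Irf1, Psmb10, Psme1, Psme2, Tapbp and B2m were at 0.0021, -0.0024, 0.0502, 0.019, 0.014 and 0.048. Without water animals 12 and 13 Ifnar1, Irf5 and Tapbp were at 0.05001, -0.013 and 0.075. Without water animals 12, 17 and 20 Ifnar1, Irf5, Psme1, Psme2, Tapbp and B2m were at 0.0016, -0.0103, 0.026, 0.029, 0.034 and 0.024. Without water animals 17, 19 and 20 Irf1, Psmb10, Psme1, Psme2 and B2m were at 0.028, -0.037, 0.065, 0.031 and 0.033. Without all 5 Ifnar1, Stat2, Irf1, Psmb10, Psme1, Psme2, Tapbp and B2m were at 0.046, -0.0029, 0.011, -0.0305, 0.14, 0.085, 0.12 and 0.0399. With each animal left out in turn the ranges were -0.028 to 0.023 for Ifnar1, -0.033 to 0.0041 for Ifngr1, -0.041 to 0.0054 for Irf1, -0.023 to 0.025 for Irf5, -0.037 to 0.015 for Tap2, -0.046 to 0.043 for Tapbp and -0.036 to 0.022 for B2m. Of the correlations, Irf7 with Ifit3 turned to -0.16 without the 2 farthest animals, Ifit1 with Ifit3 to -0.10 when centred on group and run, and Irf9 with Stat2 to -0.45 without all 5 water animals and -0.32 without the 2 farthest. No paired analysis was possible because the animals of the 2 groups share no numbers.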
